A study of Mus musculus with 5 samples.

Results

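Cep83os and a locus antisense to Topaz1 are long non-coding RNAs (lncRNAs) of the mouse testis whose counts were lower after exposure to triptolide. They were followed here together with the lncRNAs around them and the circular RNAs (circRNAs) of the genes Cep83 and Topaz1. The 2 loci were named by their locus identifiers, XLOC_022059 and XLOC_196314, and were selected on their summed counts, which fell between these same groups, so their own fold changes are given as a description with no test. Each holds 1 assembled transcript. Their neighbours were taken by position alone, as every lncRNA transcript within 100 kb, which gave 11 transcripts of 6 loci. The circRNAs were taken by host gene symbol, which gave 7 of Cep83 and 4 of Topaz1. The whole series holds 33057 lncRNA transcripts at 16356 loci and 11957 circRNAs.

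RNA was profiled in whole testis of male C57BL/6J mice aged 10 weeks at the start. Control mice, 6 in the group, received saline, and another 6 received triptolide, a plant diterpenoid known to block transcription, into the stomach at a daily dose of 50 µg per kg, and testes were taken after 35 days. All mice were of 1 wild-type strain and carried no transgene. The 5 libraries, 2 control and 3 triptolide, were depleted of ribosomal RNA and made with a strand-specific kit, and the labels do not say whether a library is 1 animal or a pool, so the spread between libraries may be in part technical.

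Cep83 encodes a protein of the distal appendages, the spokes at the outer end of the mother centriole through which it docks to the membrane when a cilium or a sperm tail axoneme begins to form. Cep83os is named as the opposite-strand transcript of that gene and is transcribed away from it. Topaz1 encodes a germ-cell protein with a PAZ domain, and male mice without it arrest in meiosis and make no sperm. A circRNA forms when the spliceosome joins the end of an exon back to the start of the same or an upstream exon, and testis makes many of them. In RNA of a whole organ, fewer cells of a type and less RNA per cell cannot be told apart.

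The 5′ ends of Cep83os and Cep83 lie side by side and face away from each other, so their promoter windows are almost the same DNA read from opposite strands. The windows are shown because this head-to-head layout sets the lncRNA that fell beside the gene whose circRNAs are described below. They are those of RefSeq on GRCm38.p6, from 250 bases before to 50 after the annotated start, and the 5′ end of Cep83os in the deposited table is the same base as the RefSeq start. The Cep83os window is chr10:94688564-94688863 on the minus strand and the Cep83 window chr10:94688540-94688839 on the plus strand. Capitals mark TGACG or its reverse complement CGTCA, the cAMP response half-site.
Cep83os: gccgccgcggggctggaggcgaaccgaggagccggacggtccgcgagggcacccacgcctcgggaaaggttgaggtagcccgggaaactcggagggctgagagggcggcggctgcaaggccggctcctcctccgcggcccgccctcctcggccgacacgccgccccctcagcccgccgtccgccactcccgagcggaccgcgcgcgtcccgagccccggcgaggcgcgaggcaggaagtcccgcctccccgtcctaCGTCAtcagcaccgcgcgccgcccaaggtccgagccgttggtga
Cep83: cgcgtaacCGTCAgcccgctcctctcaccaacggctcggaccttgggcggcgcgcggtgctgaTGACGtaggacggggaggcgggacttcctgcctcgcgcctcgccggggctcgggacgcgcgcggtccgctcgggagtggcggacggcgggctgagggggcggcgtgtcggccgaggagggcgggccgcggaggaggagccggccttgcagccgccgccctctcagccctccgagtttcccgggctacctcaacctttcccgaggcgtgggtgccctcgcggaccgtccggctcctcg
The windows share 276 bases, and 176 bases lie between the starts used for them. GC content was 76.7% in the Cep83os window and 75.7% in that of Cep83, against a median of 52.7% over 32851 RefSeq promoter windows. Searched on both strands, TGACG occurred once for Cep83os, in the shared stretch, and at 2 places for Cep83, and 20.8% of all promoter windows held it. GGGCGG, the GC box, had 4 matches in each window and was held by 35.7% of all windows. TATAAA and CCAAT had 0 matches in either, against 13.6% and 37.4% of all windows with a match. The table of promoters has no entry for the locus antisense to Topaz1.

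**Figure D1:**
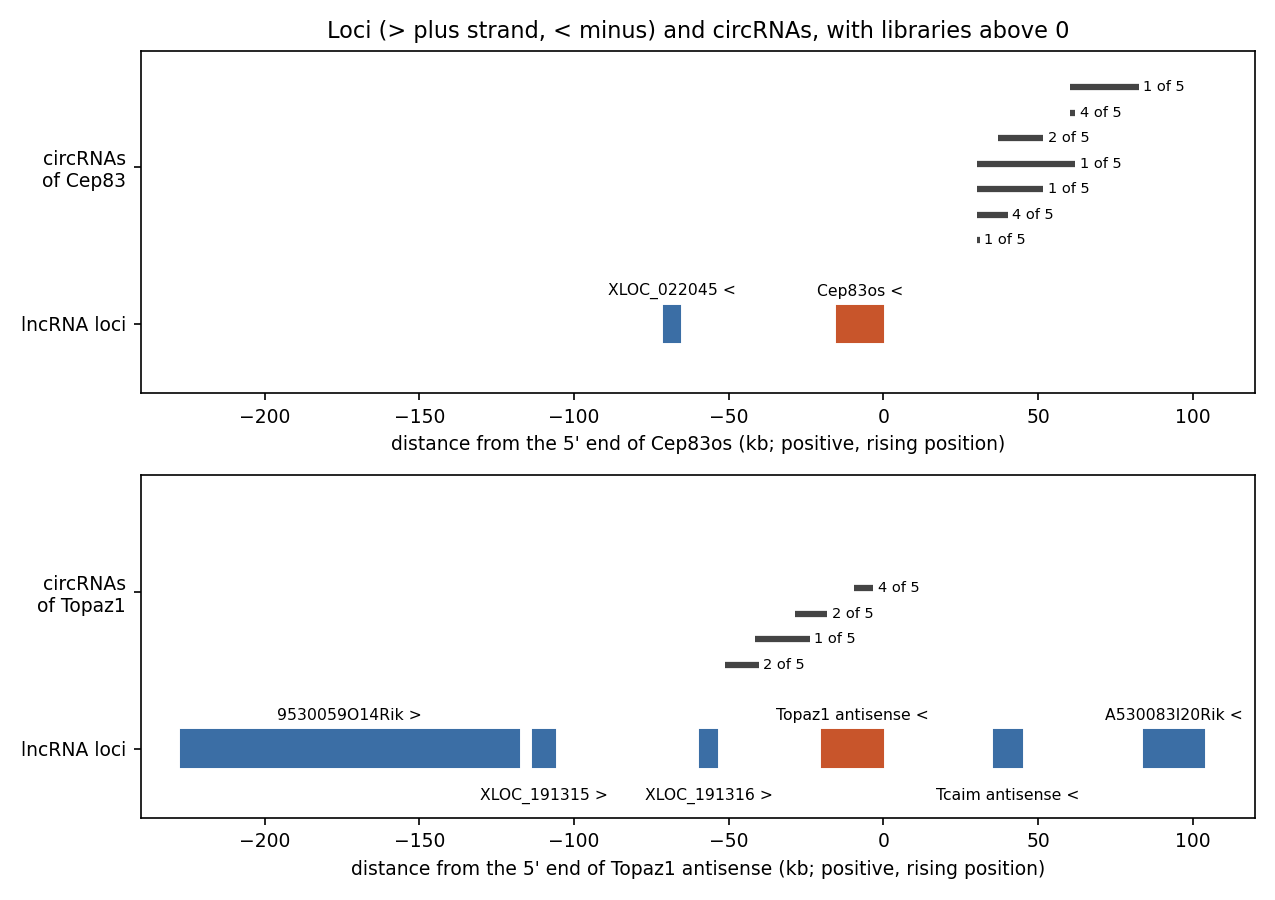
Map of the lncRNA loci (boxes, members in orange and neighbours in blue) and circRNAs (lines) around Cep83os, upper panel, and the locus antisense to Topaz1, lower panel, by distance in kb from the 5′ end of each; arrows after the names give the strand, and each circRNA carries the number of libraries with a value above 0. All circRNAs of Cep83 lie on the far side of the Cep83os 5′ end, whereas 1 circRNA of Topaz1 lies inside the antisense locus and another overlaps it.

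Cep83os (ENSMUSG00000097164, chromosome 10, 94673493 to 94688613, minus strand) is a known intergenic lncRNA of 3 exons. It had 2314 and 2653 expected counts in control 1 and control 2. The triptolide libraries had 999, 1240 and 1129, in the order A, B and 3, where A and B are libraries whose column headers do not tell them apart. Both controls were far above all 3 triptolide libraries, and the libraries of each group lay close together. Scaled to CPM, the counts of a locus divided by the lncRNA total of its library and multiplied by 1000000, the controls averaged 2438 ± 55.8 (SD, n = 2) and the triptolide libraries 1108 ± 59.3 (SD, n = 3). Every pairing of a control with a triptolide library gave a drop, of 2.05-fold at the least and 2.35-fold at the most. The controls lay above all triptolide libraries in 18.3% of all tested loci, and this locus was chosen for its fall. The share of all lncRNA counts that came from Cep83os went from 0.240% and 0.248% in control to 0.105%, 0.117% and 0.110% in triptolide. The fitted log2 fold change, with edgeR over all loci, was -1.14 ± 0.16 (SE).

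The locus antisense to Topaz1 (chromosome 9, 122779737 to 122799515, minus strand) is a newly assembled transcript of 2 exons, which the authors' table places opposite Topaz1 (ENSMUSG00000094985). It had 329 and 478.13 expected counts in control and 108, 125 and 124.01 under triptolide A, B and 3. The groups did not overlap, as in 18.3% of all tested loci in this direction, and the locus was chosen for its fall. The controls differed more from each other than the triptolide libraries did. In CPM the controls stood at 341 and 446 and the triptolide libraries at 114, 118 and 120.5. The mean drop was 3.35-fold, from 394 ± 74.6 (SD, n = 2) to 118 ± 3.3 (SD, n = 3), and single pairs of libraries gave 2.83-fold to 3.92-fold. The fitted log2 fold change was -1.74 ± 0.20 (SE), and it was -1.94 without control 1 and -1.50 without control 2. The sources used here do not state a strand setting for the counting, and reads of Topaz1 itself cannot be told apart from these.

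Of 6888 lncRNA loci tested, 2.26% were called lower at an adjusted p of 0.05 in edgeR's quasi-likelihood test, 1.7% among loci of antisense class and 2.55% among intergenic ones. Both members are among these calls by the way they were chosen, so nothing is read from it. Of all tested loci, 163 had a lower log2 fold change than Cep83os and 35 a lower one than the Topaz1 antisense locus. Among the 2886 loci with a mean of at least 50 CPM, those numbers were 10 and 2. A set of 115 tested loci that like Cep83os carry an opposite-strand symbol ending in os was put together after the values were seen. Of these, 6 were called lower and 4 higher, beside 2.26% and 5.01% of all tested loci. The 6 include Cep83os, which was chosen for its fall. The median log2 fold change of the set was -0.01 against 0.00 over all tested loci.

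**Figure D2:**
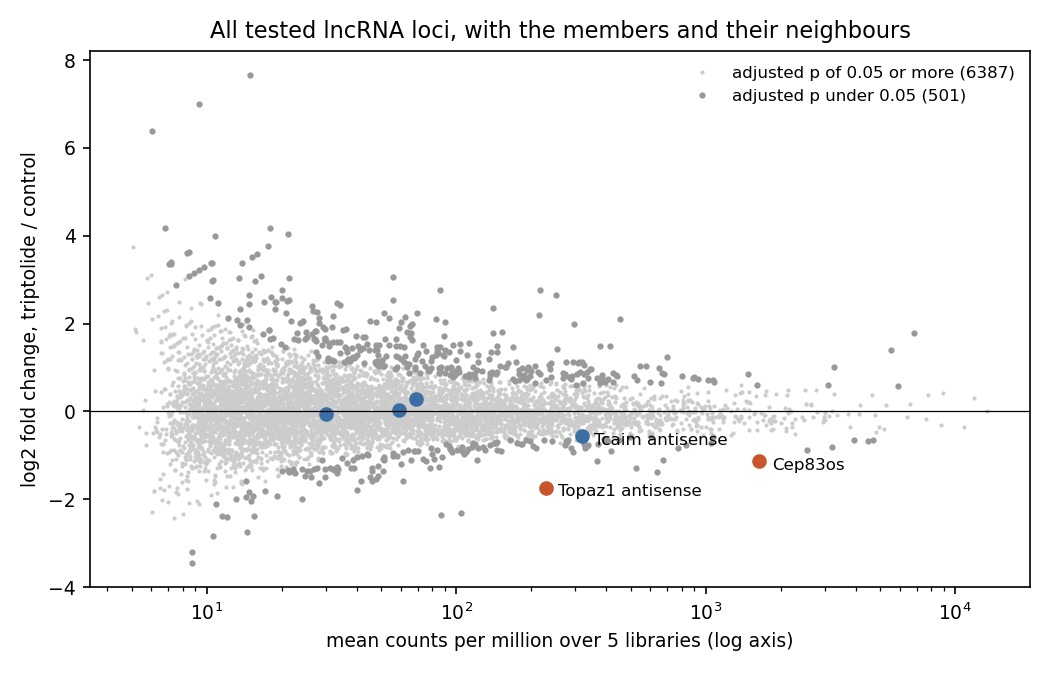
Log2 fold change (triptolide over control, edgeR) against the mean CPM over 5 libraries (log axis) for 6888 tested lncRNA loci; dark grey points passed an adjusted p of 0.05, orange points are the members and blue points their 4 tested neighbours. Cep83os at -1.14 and the Topaz1 antisense locus at -1.74 lie at the lower edge of the loci of their abundance, and the locus antisense to Tcaim at -0.57 lies nearer to 0.

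The groups also differed in the sequenced material. The mRNA table implied fragments of 289 and 278 bases on average for the controls, against 257 to 264 bases for the triptolide libraries, and the part of this in the falls was not tested. Total lncRNA counts ran from 947298 to 1071012 per library. Of the markers listed for testis cells, spermatocyte genes hosted circRNAs with a summed level of 2153 and 2828 SRPBM in the controls and 1974 to 2378 under triptolide (3 of 7 genes with a circRNA), and spermatid genes 3822 and 2855 against 2105 to 3351 (3 of 11 genes). SRPBM, the authors' score, is by its name a number of spliced reads scaled to the mapped reads. Markers of spermatogonia summed to 140 and 124 SRPBM in the controls and 115 to 139 under triptolide (2 of 5 genes). This sum was 1 circRNA of Dmrt1, but for 19 SRPBM of Zbtb16 in a triptolide library. Markers of immune cells summed to 17 and 0 SRPBM against 0 to 43 (1 of 4). The 6 Sertoli, 5 Leydig, 3 endothelial and 3 smooth muscle markers had 0 circRNAs in the table. The spermatocyte sum was almost all Sycp1, at 2110 and 2690 SRPBM in the controls and 1931 to 2283 under triptolide. The spermatid sum was mostly Dnah8, an axonemal dynein gene, at 3076 and 2565 SRPBM in the controls and 2000 to 3141 under triptolide. The circRNAs of Prm2, a protamine gene, did not overlap between groups, as for 11.5% of tested host sums in this direction. They summed to 703 and 290 SRPBM in the controls and 86, 79 and 52 under triptolide (adjusted p of 0.75 in limma). Those of Odf2, the remaining spermatid gene, summed to 43 and 0 SRPBM in the controls and 19, 131 and 43 under triptolide. Their log2 difference was 1.13, with an adjusted p of 0.80 in limma.

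Among lncRNA loci antisense to markers, 6 could be tested and 0 passed. The median log2 fold change of the 3 spermatid loci was 0.57 and that of the 2 spermatocyte loci -0.26. The locus antisense to Sycp1 was at 61.1 and 74.7 CPM in the controls and 51.7, 53.8 and 44.7 CPM under triptolide. Its groups did not overlap, as in 18.3% of all tested loci in this direction (log2 fold change -0.44, adjusted p of 0.36 in edgeR). Those of the locus antisense to Sycp2 overlapped, with a log2 fold change of -0.08. The locus antisense to Tnp2, a transition protein gene, stood at 61.1 and 57.9 CPM in the controls and 86.6, 76.5 and 102 CPM under triptolide. Its groups did not overlap, as in 19.7% of all tested loci in this direction (adjusted p of 0.18 in edgeR). That antisense to Dnah8 was at 38.3 and 19.6 CPM against 52.8, 38.7 and 61.2 CPM, with an adjusted p of 0.14 in edgeR. The remaining spermatid locus, antisense to Akap3, was at 14.5 and 12.1 CPM in the controls and 11.6, 9.4 and 12.6 CPM under triptolide. Its groups overlapped, with a log2 fold change of -0.24 (adjusted p of 0.85 in edgeR). The only tested Leydig locus, antisense to the steroidogenesis gene Star, was lower without overlap, as in 18.3% of all tested loci. It stood at 52.9 and 57.9 CPM in the controls and 33.8, 36.8 and 42.7 CPM under triptolide (log2 fold change -0.55, adjusted p of 0.28 in edgeR). The part of cell makeup in the falls was not tested.

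Of the 6 neighbouring loci, 4 had enough counts to be tested, and 0 of these 4 passed, against 7.27% of all tested loci in either direction (5.01% higher). At an unadjusted p under 0.05, 1 of the 4 was lower in edgeR, as against 1497 of all 6888 loci (21.7%) in either direction, and DESeq2 and limma also called 0. The one with the smallest p was the locus antisense to Tcaim (XLOC_196315, chromosome 9, 122835095 to 122844236), which lies 35580 bases beyond the Topaz1 antisense locus on the same strand. Tcaim encodes a mitochondrial protein first described in T cells. This locus stood at 419 and 373 CPM in the controls and 301, 285 and 214 CPM under triptolide A, B and 3, so the groups did not overlap, as in 18.3% of all tested loci in this direction and 19.7% in the other. Its mean was 1.48-fold lower, 396 ± 32.6 against 267 ± 46.5 CPM (SD, n = 2 and n = 3). The log2 fold change was -0.57 ± 0.19 (SE) with an adjusted p of 0.067 in edgeR, and under the alternatives that adjusted p lay between 0.065 and 0.29.

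The locus antisense to Tcaim has 3 transcripts of 3 exons each, which share their 3′ end. Most counts went to TCONS_00332008, with 372.8 and 295.6 expected counts in control and 184.2, 199.4 and 185.37 in triptolide. It held 92.3% and 74.1% of the locus in control and 64.6%, 66.0% and 84.3% in triptolide, so the shares overlapped. The transcript's own log2 fold change was -0.81 ± 0.20 (SE), with an adjusted p of 0.34 in edgeR over 13534 transcripts, of which 0 passed (1339 had an unadjusted p under 0.05, and DESeq2 called 327 and limma 3).

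The other tested neighbours did not separate the groups. The known antisense lncRNA A530083I20Rik (XLOC_196316, chromosome 9, 122883780 to 122903184) had 17.6 and 43.9 CPM in the controls and 31.4, 32.0 and 25.3 CPM in triptolide, and its fitted log2 difference was -0.07 ± 0.37 (SE). On the other side lies XLOC_191315, a new intergenic locus (122686323 to 122693304), at 38.3 and 77.5 CPM in the controls and 60.2, 56.7 and 62.2 CPM in triptolide (0.03 ± 0.29). For both, the triptolide values fell between the controls, and the adjusted p was 0.94 and 0.97 in edgeR. The known intergenic lncRNA 9530059O14Rik (XLOC_191312, 122572497 to 122681679) had 64.3 and 57.9 CPM in the controls and 80.2, 52.9 and 88.4 CPM in triptolide (0.28 ± 0.27, adjusted p of 0.61 in edgeR). Its log2 fold change was 0.11 without triptolide 3 and 0.50 without triptolide B. Of its 4 transcripts, 1 lay within the window, at a distance of 98058 bases, the farthest of the neighbours.

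The remaining neighbours were almost silent. XLOC_022045, the only lncRNA within 100 kb of Cep83os, had 0 and 3 counts in control and 0 in each triptolide library. XLOC_191316, which ends 33962 bases from the Topaz1 antisense locus, had 0 and 2 counts in control and 0 in each triptolide library. The first loci beyond the window were Gm16155, 262761 bases from Cep83os with 0 counts in every library, and XLOC_196303, 341583 bases from the Topaz1 antisense locus at 10.4 and 19.6 CPM in the controls and 25.3, 22.7 and 38.9 CPM in triptolide. The loci around the members thus held no call, and Cep83os had no neighbour with enough counts to compare.

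**Figure D3:**
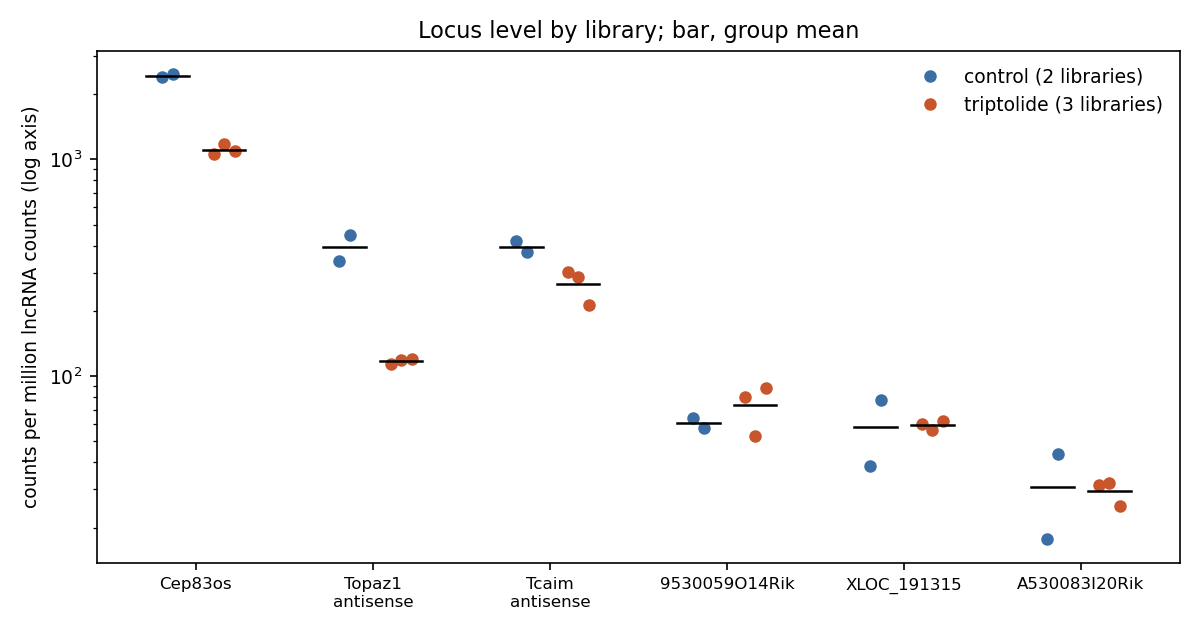
CPM (log axis) in each library for the 2 members and their 4 tested neighbours; points are libraries (control in blue, triptolide in orange) and bars are group means, and CPM is not corrected for length, so heights compare libraries of 1 locus only. The controls lie above all triptolide libraries for Cep83os, the Topaz1 antisense locus and the Tcaim antisense locus, as in 18.3% of all tested loci. The groups overlap for the other 3. The 2 members were chosen for their fall.

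Circular RNAs of Cep83 were lower in sum after triptolide without passing the test. The summed level was 166 and 106 SRPBM in the controls and 75, 51 and 43 SRPBM under triptolide A, B and C, letters that do not match those of the lncRNA table. The controls were above all triptolide libraries, as for 11.5% of the 2342 host genes tested. These sums rest on few junction reads, about 19 and 13 in control and 8, 6 and 5 in triptolide. On the log2(SRPBM + 16) scale, which understates changes of low values, the difference was -1.07 ± 0.49 (SE), with an adjusted p of 0.77 in limma over all host genes, of which 0 passed (147 had an unadjusted p under 0.05).

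The 7 circRNAs of Cep83 span 891 to 31808 bases and reuse a few splice sites: 4 of them begin at 94718852 on chromosome 10, 30239 bases beyond the 5′ end of Cep83os, and 2 begin at 94748941. The one spanning 9871 bases (94718852 to 94728722) had 79 and 24 SRPBM in the controls and 28, 0 and 17 under triptolide. The one spanning 1719 bases (94748941 to 94750659) had 52 and 49 SRPBM in the controls and 28, 0 and 26 under triptolide. For the latter the controls were above all triptolide libraries, as for 10.5% of the 5457 circRNAs tested, and for the former control 2 lay between the triptolide values. Their differences were -1.11 ± 0.77 and -1.10 ± 0.72 (SE) on the log2(SRPBM + 16) scale, with an adjusted p of 0.68 for both in limma. The first was -0.49 without control 1, -0.69 without triptolide B and -1.74 without control 2, and the second -0.63 without triptolide B. Another (94725647 to 94740188) was above 0 only in control 2, at 33 SRPBM, and in triptolide B, at 17. The other 4 were above 0 in 1 library each, at 17 to 35 SRPBM. No source used here says what a listed 0 stands for, and the smallest value above 0 in any library was worth 2 reads.

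The 4 circRNAs of Topaz1 had no common direction. In sum they stood at 43 and 181 SRPBM in the controls and 86, 194 and 69 SRPBM under triptolide A, B and C, and the groups overlapped. The difference was 0.18 ± 0.64 (SE) on the log2(SRPBM + 16) scale, with an adjusted p of 0.98 in limma, and it turned to -0.69 without control 1 and -0.21 without triptolide B. Most of this came from a circRNA of 6119 bases (chromosome 9, 122790081 to 122796199) that lies wholly inside the span of the antisense locus. It was listed at 0 in control 1 and stood at 132 SRPBM in control 2 and 86, 124 and 69 SRPBM in triptolide. The direction rests on control 1: the difference was 1.13 ± 0.88 (SE) with an adjusted p of 0.73 in limma, 2.74 without control 2 (adjusted p of 0.014) and -0.47 without control 1 (adjusted p of 0.90).

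A second circRNA of Topaz1, of 10320 bases (122771100 to 122781419), reaches 1683 bases into the antisense locus. It had 43 and 33 SRPBM in control, about 5 and 4 reads, and was listed at 0 in every triptolide library. It was the only 1 of the 6 tested circRNAs of Cep83 and Topaz1 with an unadjusted p under 0.05, and its adjusted p was 0.68 in limma. Of all 5457 circRNAs tested, 0 passed and 360 had an unadjusted p under 0.05. The circRNA nearest the Topaz1 start (122748244 to 122759200) had 0 and 16 SRPBM in the controls and 0, 26 and 0 under triptolide, and the last (122757926 to 122775645) was above 0 only in triptolide B, at 44.

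**Figure D4:**
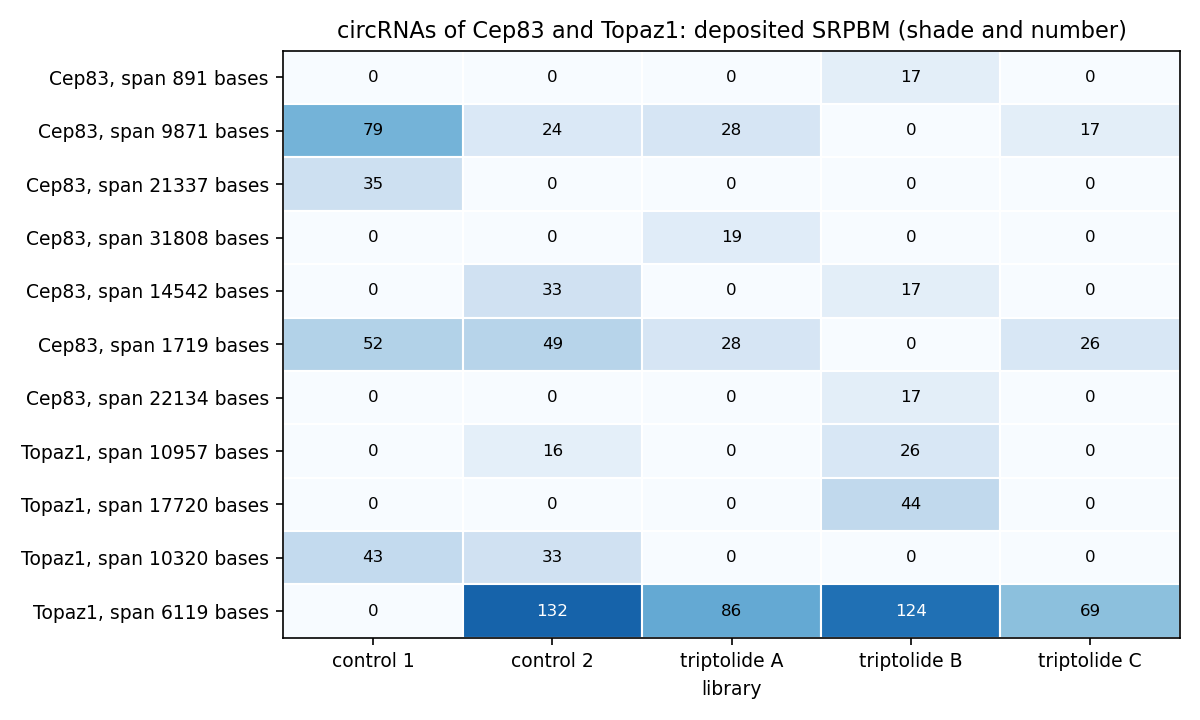
Deposited SRPBM (number in each cell, darker for higher) of the 7 circRNAs of Cep83 and the 4 of Topaz1 in each of 5 libraries, in order of position. The Cep83 circRNAs spanning 9871 and 1719 bases and the Topaz1 circRNA spanning 6119 bases are above 0 in 4 libraries, and the latter is listed at 0 in control 1.

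Genes that work with Cep83 or, like Topaz1, act in male meiosis were looked up from lists written down for this purpose. Of 42 genes of the distal appendages, centrosome and ciliogenesis, 4 lncRNA loci, all antisense, and 17 circRNA host sums could be tested, and 0 passed in either direction. At an unadjusted p under 0.05, 1 locus was lower in edgeR and 1 host sum higher in limma, against 21.7% of all loci and 6.28% of all host sums. DESeq2 and limma also called 0 of the loci. The locus was that antisense to Cep135, at 26.9 and 25.2 CPM in the controls and 10.6, 16.1 and 10.7 CPM under triptolide. Its groups did not overlap, as in 18.3% of all tested loci in this direction (log2 fold change -1.06, adjusted p of 0.15 in edgeR). Of the 4 loci, 2 were below 0 and 2 above. The host sum was that of Rab11a, at 0 and 0 SRPBM in the controls and 47, 61 and 17 SRPBM under triptolide (adjusted p of 0.75 in limma). The median log2 fold change was 0.03 for the loci, against 0.00 over all loci, and 0.19 for the host sums, against -0.08 over all host genes. The locus antisense to Rab3ip, which encodes an activator of the ciliary GTPase Rab8, stood at 1208 and 1035 CPM in the controls and 960, 1082 and 1026 CPM under triptolide, and that antisense to Cep152, a centriole duplication gene, at 268 and 214 CPM and at 269, 303 and 253 CPM. Both groups overlapped. The circRNAs of Sclt1, which encodes another distal appendage protein, summed to 551 and 684 SRPBM in the controls and 713, 891 and 676 SRPBM under triptolide, with an adjusted p of 0.85 in limma, and those of the centrosome gene Cep350 to 350 and 430 SRPBM and to 343, 477 and 416 SRPBM.

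Of 57 meiosis genes, 10 lncRNA loci and 26 circRNA host sums could be tested, and 0 passed in either direction. At an unadjusted p under 0.05, 2 of the 10 loci were higher in edgeR and 4 of the 26 host sums lower in limma, beside the same shares of 21.7% and 6.28%, and DESeq2 and limma also called 0 of the loci. The medians were -0.24 for the loci and -0.18 for the host sums. The locus antisense to Sycp2, which encodes a part of the synaptonemal complex, the scaffold that pairs homologous chromosomes, had 70.5 and 130 CPM in the controls and 92.9, 118 and 74.8 CPM in triptolide. A locus opposite Brdt (XLOC_150507), whose protein reads acetylated histones in germ cells, had 61.1 and 42.0 CPM in the controls and 80.2, 74.6 and 101 CPM in triptolide. Its groups did not overlap, as in 19.7% of all tested loci in this direction. Its log2 fold change of 0.74 ± 0.27 (SE) had an adjusted p of 0.097 in edgeR. Another Brdt locus, XLOC_150508, was lower without overlap, as in 18.3% of all tested loci. It had 46.6 and 49.5 CPM against 32.7, 41.6 and 43.7 CPM (-0.29, adjusted p of 0.64 in edgeR). The 2 loci higher at an unadjusted p under 0.05 in edgeR were XLOC_150507 and XLOC_033006, antisense to Tex14. The latter stood at 7.3 and 3.7 CPM in the controls and 10.6, 25.5 and 12.6 CPM under triptolide (adjusted p of 0.14 in edgeR). Its groups did not overlap, as in 19.7% of all tested loci in this direction. Another Tex14 locus, XLOC_033008, was at -0.30 (adjusted p of 0.56 in edgeR). The circRNAs of Brdt summed to 26 and 16 SRPBM in the controls and 0 in each triptolide library. The 16 was worth 2 reads. The remaining host sums lower at an unadjusted p under 0.05 in limma were Tex14, Stag3 and Mybl1. They stood at 261 and 169, 34 and 24, and 26 and 58 SRPBM in the controls. Under triptolide Tex14 was at 76, 96 and 69 SRPBM, and the others at 0. None of these overlapped between groups, as for 11.5% of tested host sums in this direction (adjusted p of 0.75 in limma for each). Of the 26 host sums, 15 lay below 0 and 11 above. The circRNAs of Sycp1, a gene of the same scaffold, summed to 2110 and 2690 SRPBM in the controls and 2036, 2283 and 1931 SRPBM under triptolide, and those of Hormad2, a checkpoint gene of unpaired chromosomes, to 375 and 534 SRPBM and to 371, 335 and 372 SRPBM.

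Across the 5 libraries, the levels of the members moved together and with many other loci. Pearson's r of log2(CPM + 1) between Cep83os and the Topaz1 antisense locus was 0.990, in place 9 among 2885 tested loci with a mean of at least 50 CPM. The points are the same 5 libraries, which fall into separate groups, and this is a description with no test. Both members were chosen for a fall between these groups, so a high r between them is built into the choice and nothing is read from it. In all, 87 loci reached 0.95 with Cep83os and 71 with the Topaz1 antisense locus. The loci most like Cep83os were Gm15643 (0.997), Gm11335 (0.995) and the new locus XLOC_001902 on chromosome 1 (0.995). Gm15643 stood at 97.4 ± 2.0 CPM in the controls and 52.0 ± 1.4 CPM in triptolide, Gm11335 at 168 ± 1.9 and 32.6 ± 4.3 CPM, and XLOC_001902 at 358 ± 0.72 and 297 ± 6.1 CPM (SD, n = 2 and n = 3). The loci most like the Topaz1 antisense locus were 4930433N12Rik on chromosome 9 (0.993), 4930463O16Rik on chromosome 10 (0.993) and a locus antisense to Tmem44 on chromosome 16 (0.991). They went from 192 ± 13.6 to 144 ± 3.9 CPM, from 996 ± 179 to 463 ± 32.6 CPM and from 198 ± 18.8 to 129 ± 5.8 CPM. In each of these, as in the Topaz1 antisense locus, control 2 was above control 1.

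The log2 fold changes of both members and of the locus antisense to Tcaim were also fitted under other scalings, filters and tools and with each library left out. The locus antisense to Tcaim stayed below 0 throughout, between -0.68 without triptolide A and -0.44 without triptolide 3.

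**Figure D5:**
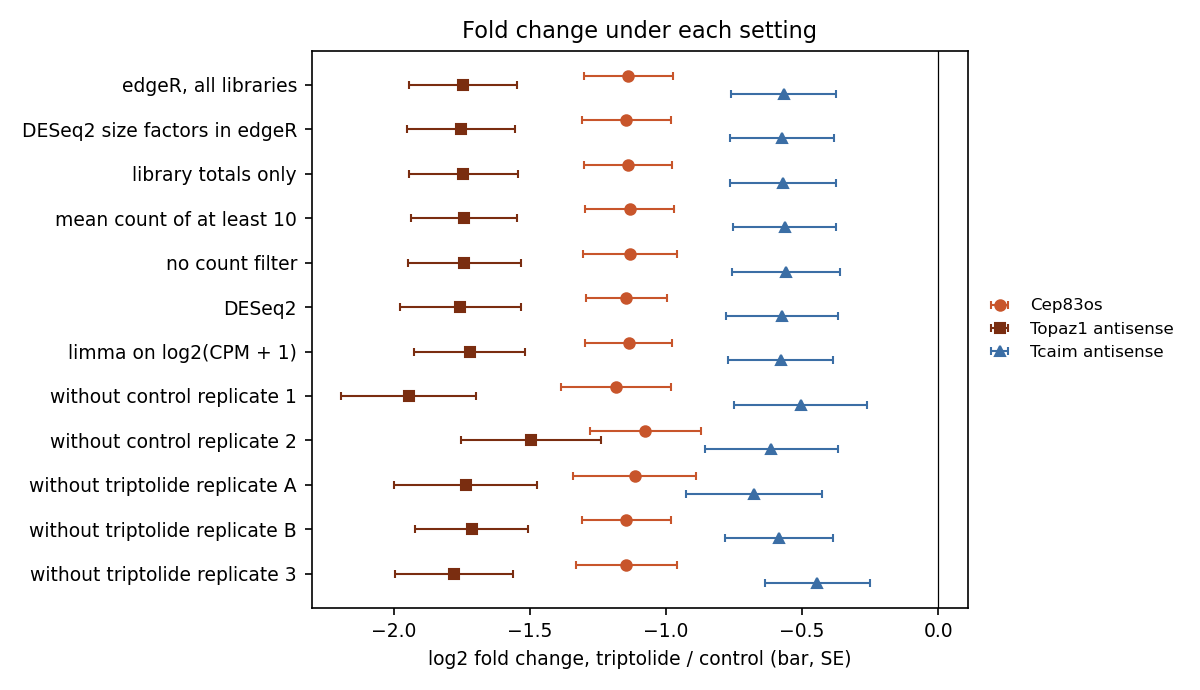
Log2 fold change (triptolide over control, bar: SE) of Cep83os, the locus antisense to Topaz1 and the locus antisense to Tcaim with edgeR on all libraries and under each other setting. Cep83os stays between -1.18 and -1.07 and the Topaz1 antisense locus between -1.94 and -1.50 in the settings shown.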

How the data were processed

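HISAT2 2.0.1, HTSeq 0.6.1, bedtools 2.17.0 and DESeq are named in the submitters' processing notes without a role, as is the human build hg19. The positions are mouse: the 5′ end of Cep83os equals its RefSeq start on GRCm38.p6. The authors deposited 3 tables. Those of lncRNAs and mRNAs hold expected counts, per the file headers. The mRNA table also holds FPKM deposited by the authors, used here for fragment length alone, from a weighted fit of the ratio of count to FPKM on length, over transcripts between 800 and 20000 bases long and above an FPKM of 20. It names no gene, so mRNA of Cep83 and Topaz1 was not analysed here. For circRNAs the deposited values are a score headed SRPBM, given as whole numbers. Its values were within 0.1 of a whole multiple of 8.28 to 9.57 SRPBM, the worth of 1 read, for 98.4% to 100% of entries above 0, and totals came to 32804 to 44318 junction reads per library.

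Columns were matched to samples by header. Triptolide replicate 2 heads 2 count columns for lncRNAs, and triptolide replicate 1 heads 3 columns for circRNAs, so these entered as unnumbered libraries of the triptolide group. The 5 FPKM columns of the lncRNA table were not used.

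Expected counts were summed per locus and rounded. The test was that of edgeR 4.0.16 in R 4.3.3, after filterByExpr and TMM scaling: the quasi-likelihood F test and Benjamini-Hochberg adjustment over all loci, with a threshold of 0.05. SE were taken from the F statistic. For circRNAs, and their sums per host gene, limma 3.58.1 with a trend was run on log2(SRPBM + 16), keeping those above 0 in 2 or more libraries. DESeq2 1.42.0 and limma on log2(CPM + 1) were alternatives for lncRNAs. The scripts were tested on simulated data. The members, lists and tests were chosen with earlier results of these data known. Every member was accounted for, and loci with a mean of at least 10 CPM and circRNAs above 0 in at least 3 libraries were named with values. From each gene list the 2 items with the highest summed level were named, and those with an unadjusted p under 0.05 in edgeR or limma. Other entries of Brdt and Tex14 were given beside them. For likeness the 3 loci with the highest r were named. Gene lists were matched by symbol or RefSeq synonym, leaving out a synonym that is the symbol of another gene.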

Additional observations from a re-analysis of the deposited data

How the results depend on the processing

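Cep83os and the Topaz1 antisense locus were chosen for a fall that every pair of control and triptolide libraries showed. Their direction could thus hardly change under 11 alternatives, and only the size of the fall is described. The log2 fold change of Cep83os lay between -1.18 and -1.07. That of the Topaz1 antisense locus ran from -1.94 to -1.50 with 1 library left out and from -1.75 to -1.72 otherwise. The count of neighbours called was 0 under all 11. With 1 library left out, calls over all loci numbered 269 to 588 against 501, the low end being 269 without control 1 or triptolide 3 and 279 without triptolide A. Over lncRNA transcripts, 39 passed with no count filter, 327 with DESeq2 and 3 with limma, against 0. Over circRNAs, 1 passed among those above 0 in all libraries and 36 among those above 0 in at least 1, and with 1 library left out 0 to 130, with 2 without control 1 and 130 without control 2. Over host sums 1 passed among those above 0 in at least 1 library, and with 1 library left out 0 to 48, with 1 without control 1 and 48 without control 2. Of the circRNAs of Cep83 and Topaz1, 0 or 1 passed with 1 library left out, the 1 being that of 6119 bases without control 2. In each case the cause was not tested. With 1 control left, it is assumed to vary as the triptolide libraries do.

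Differences near 0 changed sign. A530083I20Rik (XLOC_196316) was at 0.080 with limma and ran from -0.58 without control 1 to 0.79 without control 2, and XLOC_191315 from -0.40 to 0.68 without the same libraries. The summed circRNAs of Topaz1 ran from -0.69 without control 1 to 1.05 without control 2, and its circRNA of 6119 bases from -0.47 to 2.74. No paired analysis was possible because the groups were different mice and no label says that a shared replicate number marks a pair. The lncRNA and circRNA tables also repeat 1 header over several triptolide columns, so fewer than 2 replicate numbers could be matched between the groups. The circRNAs rest on at most 16 junction reads in a library, which limits their precision.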
